A study of Mus musculus with 93 samples.

Results

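The expression of 33 genes of fatty acid oxidation and ketogenesis was measured by RNA sequencing in the livers of 93 male mice from 7 inbred strains, fed either of 2 diets. The genes were chosen by name, for their known roles and with earlier results of these data known. They comprised 5 for fatty acid activation and the carnitine shuttle, and 11 for mitochondrial beta-oxidation. Another 3 pass its electrons to the respiratory chain, and 7 act in peroxisomal beta-oxidation. The rest were 4 acyl-CoA thioesterases, the ketone body enzyme Bdh1, and 2 further targets of the nuclear receptor PPARα (Pdk4 and Vnn1). All 33 were found among the 53465 genes of the count table, and all 33 were abundant enough to be tested with the 19110 genes that passed the filter on low counts.

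Laboratory strains (A/J, DBA/2J, C57BL/6J and 129S1/SvImJ) and strains derived from wild mice (WSB/EiJ, PWK/PhJ and CAST/EiJ) were kept at thermoneutrality (30 °C, abbreviated TN) from 6 wk of age. From 7 wk of age, and for 17 wk, they received a control diet (CD-TN, here CD) with 10% of its calories from fat, 73% from carbohydrate and 17% from protein, or a Western-style diet (WD-TN, here WD) with 40% from fat, 43% from carbohydrate and 17% from protein; livers were taken at 24 wk after a 4 h fast. The CD and WD groups held 8 and 8 C57BL/6J, 6 and 7 DBA/2J, 5 and 6 A/J, 7 and 6 129S1/SvImJ, 6 and 6 WSB/EiJ, 7 and 8 CAST/EiJ, and 6 and 7 PWK/PhJ mice. All groups analysed here shared the thermoneutral housing. The labels give no mouse numbers, and the numbers used here only name the mice of a group in their order of deposit. Each strain was studied in 2 cohorts, except CAST/EiJ with 3. No cohort held all 7 strains, and cohorts 6 and 7 held WSB/EiJ alone. Differences between strains and between cohorts therefore cannot be fully told apart.

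Each mouse had 40020424 to 49894856 reads on genes (median 46618609), and a member as abundant as Cpt1a had at least 11481 reads in every C57BL/6J mouse on CD. RNA integrity numbers (RIN) ran from 7.0 to 9.7. Of 15 hepatocyte markers, none was at 0 in every mouse of any group, and they summed to a median of 139600 CPM (reads of a gene scaled to a common library size) in C57BL/6J on CD. All strains were aligned to the genome of C57BL/6J, and the share of reads that did not align averaged 12.14% in CAST/EiJ against 2.17% in A/J. Differences in level between strains and differences in how well their reads align cannot be told apart. The share also differed between diets within strains, with means of 3.50% on CD and 7.88% on WD in PWK/PhJ, 10.83% and 13.29% in CAST/EiJ, 4.52% and 7.42% in WSB/EiJ and 6.45% and 4.77% in DBA/2J, and its part in the diet results was not tested.

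Fatty acids enter oxidation as acyl-CoA esters, which Acsl1 makes. Cpt1a hands the acyl group to carnitine at the outer mitochondrial membrane, the step that malonyl-CoA inhibits, Slc25a20 exchanges the acylcarnitine across the inner membrane, and Cpt2 restores the acyl-CoA inside. Each turn of the beta-oxidation spiral then shortens the chain through a dehydrogenase, a hydratase, a second dehydrogenase and a thiolase. Peroxisomes run a parallel spiral for very long chains and dicarboxylic acids, thioesterases cleave acyl-CoA back to free acid, and the liver turns surplus acetyl-CoA into ketone bodies. PPARα, which fatty acids activate, drives transcription of much of this set in the liver during fasting.

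Promoter sequences are shown for 3 members whose levels the results turn on, to set the core letters bound by PPARα and related receptors beside the expression values. RefSeq's table of promoters (GRCm38.p6) held 28 of the 33 members. The letters AGGTCA, searched on both strands over the 250 bases before the start, were present in 4 of the 28 (14.3%), namely Cpt1a, Acadm, Acadvl and Acot4, and in 15.8% of the 27025 gene symbols of the table. A direct repeat of these letters with 1 base between the copies (a DR1 element), with any base allowed in place of the T, was in none of the 28 and in 0.4% of all symbols. The same element without its first letter, of which it is a part, was in Acot4 alone (3.57%) and in 0.81% of all. The member share was thus close to that of all promoters for the single core motif. The thioesterase genes Acot3 and Acot4 lie in one cluster on chromosome 12 with Acot1 and Acot2, and Acadm, of medium-chain oxidation, is shown as a member that moved in another strain. Below, each is 250 bases, 5′ to 3′ on the strand of the gene, and capitals mark the matched letters, which in both matches lie on the opposite strand: 13 to 2 bases before the start in Acot4 and 249 to 244 bases before it in Acadm. Acot3 (chr12:84051894-84052143, plus strand) held no match. Acot4 is chr12:84038129-84038378 (plus strand) and Acadm chr3:153944644-153944893 (minus strand).
Acot3: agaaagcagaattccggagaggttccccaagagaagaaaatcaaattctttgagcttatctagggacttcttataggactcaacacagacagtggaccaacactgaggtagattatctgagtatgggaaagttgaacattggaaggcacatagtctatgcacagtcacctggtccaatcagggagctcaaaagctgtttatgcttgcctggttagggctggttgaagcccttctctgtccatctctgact
Acot4: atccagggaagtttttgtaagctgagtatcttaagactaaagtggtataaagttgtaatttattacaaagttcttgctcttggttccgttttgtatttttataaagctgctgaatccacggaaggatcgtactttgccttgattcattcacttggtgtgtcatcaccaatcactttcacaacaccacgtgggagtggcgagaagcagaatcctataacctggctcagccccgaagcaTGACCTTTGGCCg
Acadm: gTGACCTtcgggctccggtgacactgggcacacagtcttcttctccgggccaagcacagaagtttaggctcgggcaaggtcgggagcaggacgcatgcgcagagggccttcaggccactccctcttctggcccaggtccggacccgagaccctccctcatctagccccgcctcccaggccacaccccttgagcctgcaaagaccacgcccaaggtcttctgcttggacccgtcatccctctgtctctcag

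Before any diet comparison, several CD mice stood apart from others of their own group in these genes. Among the 7 CAST/EiJ mice on CD, mice 3, 5, 6 and 7 held the 4 highest values for 25 of the 33 members. Summed over the 33 members, they had 12660, 13490, 16080 and 16930 CPM, whereas mice 1, 2 and 4 had 8554, 6238 and 6708 CPM and the 8 WD mice 7276 to 8732 CPM. The other PPARα targets Cyp4a10, a fatty acid hydroxylase, and Plin2, a lipid droplet coat protein, split the same way, at 662 to 1048 CPM against 31.9 to 45.5 CPM for Cyp4a10 and at 864 to 1416 CPM against 210.5 to 489 CPM for Plin2. By cohort, mouse 3 was with mouse 2 in cohort 3, mice 5, 6 and 7 with mouse 4 in cohort 4, and mouse 1 in cohort 1. RIN was 8.7 to 9.2 in the high and 8.9 to 9.0 in the low mice. Hepatocyte markers summed to 145700 to 154400 against 134800 to 156800 CPM, and leukocyte and macrophage markers to 117 to 147 against 127 to 174 CPM. The scaling factors of the libraries (TMM) were 0.882 to 0.916 in the high and 0.923 to 0.959 in the low mice. The 4 h fast is stated for the study as a whole and not mouse by mouse, and what separates these mice was not tested.

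Among the 6 DBA/2J mice on CD, mice 2 and 3 held the 2 highest values for 32 of the 33 members, with member sums of 11260 and 12730 CPM against 4746 to 7476 CPM in the other 4. Both were in cohort 4, together with mouse 1 of the lower 4, and the fatty acid hydroxylase Cyp4a14 read 801 and 1456 CPM in them against 4.31 to 152 CPM. In C57BL/6J on CD, mouse 2 was the lowest, with a member sum of 4232 CPM against 7998 to 10670 CPM in the other 7. That mouse also had the highest leukocyte and macrophage marker sum of its group (707 CPM against 205 to 400.1 CPM), the highest cholangiocyte sum (437 against 43.4 to 199 CPM) and the lowest Ppara (16.2 against 36.5 to 98.2 CPM). In C57BL/6J on WD, mouse 3 had the lowest member sum of its group (6987 against 8217 to 9892 CPM). It also had the lowest Ppara (37.1 against 73.5 to 108.1 CPM) and the highest cholangiocyte sum (408 against 48.1 to 215.6 CPM). The part of these mice in the results was not tested. The numbers of members called in each of these 3 strains are given below with and without the CD mice named here. Because these CD mice were picked by their values, the counts without them are descriptions and no tests of diet.

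**Figure D1:**
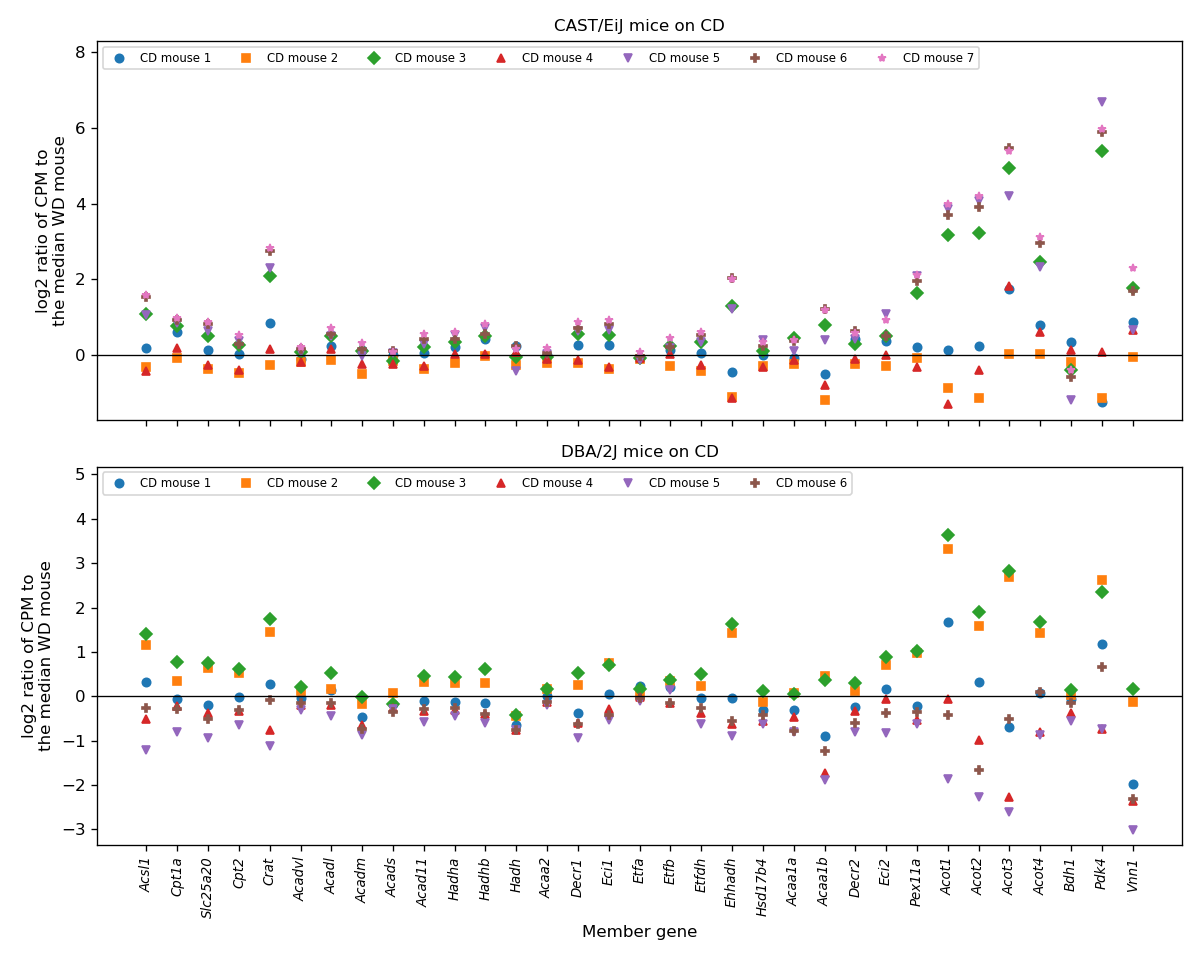
Each symbol is 1 CD mouse of CAST/EiJ (upper panel) or DBA/2J (lower panel), and the vertical axis is the log2 ratio of its CPM to the median WD mouse of the same strain for each of the 33 members on the horizontal axis. CAST/EiJ mice 3, 5, 6 and 7 and DBA/2J mice 2 and 3 lie above the others of their group over most members, and most widely for Pdk4 and the thioesterases in CAST/EiJ.

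The first question was how WD changed these genes in each strain. Over the 231 pairs of member and strain, 38 passed the test (limma-voom, Benjamini-Hochberg adjusted p under 0.05 over all genes of a comparison), 21 higher and 17 lower on WD, and they involved 23 of the 33 members. No member was called higher in one strain and lower in another. In 8 of the 38 calls the CD and WD mice did not overlap, and 35 of the 38 had the same sign in every cohort, the exceptions being Bdh1, Acot1 and Pdk4 in CAST/EiJ. The same counts over all genes are not given here, so these numbers do not set the members apart. C57BL/6J had 6 members higher and 1 lower, against 14.3% and 11.9% of all genes tested. DBA/2J had 7 higher and 0 lower (10.2% and 7.77% of all genes), and 129S1/SvImJ 5 higher and 1 lower (14.5% and 13.6%). In PWK/PhJ 2 members were higher and 2 lower, below the shares of all genes, which were 15.1% and 14.5%. A/J (4.39% higher and 4.64% lower over all genes) and WSB/EiJ (4.97% and 3.97%) had 0 members called in either direction by limma-voom; at an unadjusted p under 0.05 there were 3 higher and 0 lower in A/J and 2 higher and 3 lower in WSB/EiJ. With edgeR 0 members were called in A/J and 1, lower, in WSB/EiJ, and with DESeq2 1, higher, in A/J and 1, lower, in WSB/EiJ. Both of these tools called 2 members lower in DBA/2J, where limma-voom had 0 at the unadjusted threshold too. In CAST/EiJ the calls were nearly all downward, with 1 member higher and 13 lower (9.77% and 9.73% of all genes). Leaving out 1 mouse moved the number lower in CAST/EiJ between 9 (without CD mouse 5) and 18 (without CD mouse 2), and the number higher in DBA/2J between 3 (without CD mouse 4) and 7.

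The median log2 fold change of the 33 members was -0.32 in CAST/EiJ, where the median of all genes was 0.02, and lay between -0.05 and 0.08 in the other 6 strains, where that of all genes was within 0.011 of 0. Summed over the 33 members, the group means were 11524 CPM on CD and 7890 CPM on WD in CAST/EiJ. They ran from 7958 to 10164 CPM over the other strains and diets. With CAST/EiJ CD mice 3, 5, 6 and 7 left out, 0 members were called in CAST/EiJ in either direction (0.904% of all genes were then called higher and 1.62% lower), and the members' median was 0.12; 3 CD and 8 WD mice remained. Without DBA/2J CD mice 2 and 3, the calls in DBA/2J went from 7 to 11 higher and stayed at 0 lower (7.69% and 5.90% of all genes), and the members' median was 0.36 in place of 0.06. Leaving out C57BL/6J CD mouse 2 gave 5 higher and 2 lower in C57BL/6J (16.7% and 13.5% of all genes), with Acaa1a no longer called and Eci2 called lower (log2 fold change -0.50, adjusted p = 0.00557). WD mouse 3 of C57BL/6J, the lowest of its group, stayed in these counts. Without that WD mouse alone, 7 members were higher.

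**Figure D2:**
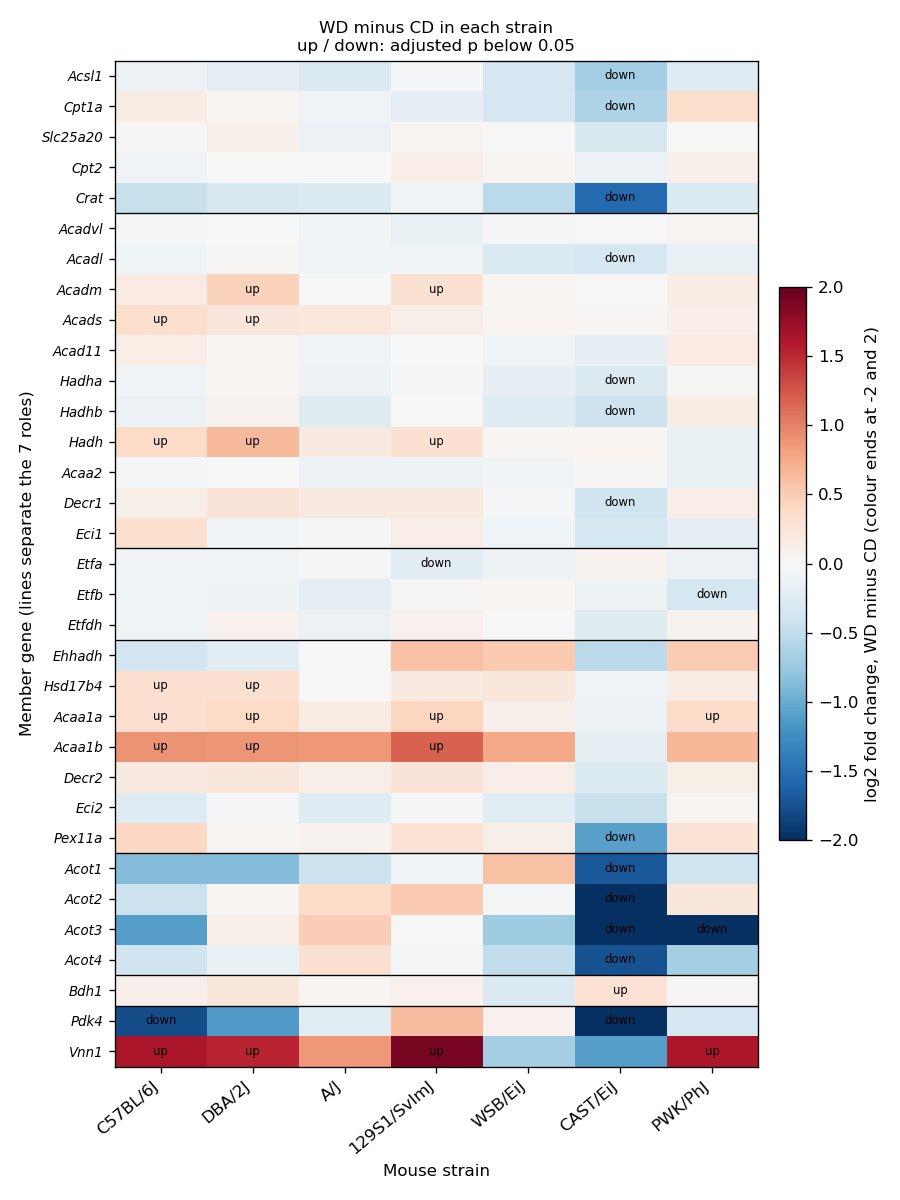
Rows are the 33 members grouped by role, columns the 7 strains, and color the log2 fold change of WD minus CD, with the color scale ending at -2 and 2; up and down mark an adjusted p under 0.05. The CAST/EiJ column holds 13 of the 17 downward calls, Vnn1 and Acaa1a are called higher in 4 strains each, and the A/J and WSB/EiJ columns hold none.

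Among the genes of activation and the carnitine shuttle, calls were made in CAST/EiJ alone. There 3 of 5 members were lower on WD (9.73% of all genes). Crat (GRCm38 chr2:30400471-30415813), which moves acetyl groups between CoA and carnitine, had 23.5 to 199 CPM (median 119.6) in the 7 CD mice and 20.5 to 38.5 CPM (median 28.2) in the 8 WD mice of CAST/EiJ (log2 fold change -1.56, SE 0.29, adjusted p = 3.53e-05). Cpt1a (chr19:3322334-3385733), the entry step of mitochondrial oxidation, had 642 to 1334 CPM (median 1151) in the 7 CD mice and 528 to 803 CPM (median 679) in the 8 WD mice (log2 fold change -0.62, SE 0.18, adjusted p = 0.00738). Acsl1, the acyl-CoA synthetase, was lower too (log2 fold change -0.68, SE 0.25, adjusted p = 0.0414). For all 3 the ranges of the diets overlapped. The call of Acsl1 was lost for 9 of the 15 mice left out in turn, each of CD mice 3, 5, 6 and 7 among them, and also when every gene with a count was tested, with a cohort term and in a fit of CAST/EiJ alone. Without CD mice 3, 5, 6 and 7, Crat gave log2 fold change -0.28, SE 0.32, adjusted p = 0.849, Cpt1a gave log2 fold change -0.25, SE 0.23, adjusted p = 0.784, and Acsl1 changed sign (log2 fold change 0.18, SE 0.29, adjusted p = 0.913). Cpt2 and Slc25a20, the inner membrane steps, passed in no strain; their log2 fold changes ran from -0.12 to 0.11 and from -0.32 to 0.10. In the other 6 strains the log2 fold change of Cpt1a lay between -0.34 in WSB/EiJ and 0.35 in PWK/PhJ.

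Of the 11 members of mitochondrial beta-oxidation, 2 were higher on WD in C57BL/6J (14.3% of all genes), 3 in DBA/2J (10.2%) and 2 in 129S1/SvImJ (14.5%). In CAST/EiJ 4 were lower (9.73% of all genes), while A/J, WSB/EiJ and PWK/PhJ had none called. The numbers in C57BL/6J and 129S1/SvImJ were near the shares of all genes. The other members of the role were of either sign in C57BL/6J and in 129S1/SvImJ, where 5 of the 11 log2 fold changes were negative. Hadh (chr3:131233419-131272101), the later dehydrogenase of the spiral, acting on short and medium chains, rose in 3 strains. In DBA/2J it had 204 to 256 CPM (median 213) in the 6 CD mice and 308 to 392 CPM (median 345) in the 7 WD mice, with every WD mouse above every CD mouse, a rise of 1.56-fold (log2 fold change 0.64, SE 0.10, adjusted p = 6.61e-07). The WD mice also all exceeded the CD mice in 129S1/SvImJ, with 268 to 322 CPM (median 293) in the 7 CD mice and 344 to 385 CPM (median 360.1) in the 6 WD mice (log2 fold change 0.30, SE 0.10, adjusted p = 0.0166). C57BL/6J had overlapping ranges, 191 to 337 CPM (median 249) in the 8 CD mice and 218 to 411 CPM (median 348) in the 8 WD mice (log2 fold change 0.38, SE 0.09, adjusted p = 0.000792). Hadh passed in none of A/J, WSB/EiJ, CAST/EiJ and PWK/PhJ, with log2 fold changes of 0.17, 0.03, 0.04 and -0.13. Within the 2 cohorts of each strain the log2 fold change of Hadh was 0.52 and 0.76 in DBA/2J and 0.64 and 0.20 in C57BL/6J.

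Acadm and Acads, the acyl-CoA dehydrogenases for medium and short chains, rose in 2 strains each. Acadm gave 215 to 391 CPM (median 268) in the 6 CD mice and 328 to 436 CPM (median 395) in the 7 WD mice of DBA/2J (log2 fold change 0.46, SE 0.11, adjusted p = 0.000979) and was also higher in 129S1/SvImJ (log2 fold change 0.30, SE 0.11, adjusted p = 0.0327). Acads was higher in C57BL/6J (log2 fold change 0.35, SE 0.07, adjusted p = 8.2e-05) and in DBA/2J (log2 fold change 0.22, SE 0.08, adjusted p = 0.0377). The call of Acads in DBA/2J was lost for 8 of 13 mice left out in turn and that of Acadm in 129S1/SvImJ for 6 of 13. In CAST/EiJ the members lower on WD were the long-chain dehydrogenase Acadl (log2 fold change -0.36, SE 0.09, adjusted p = 0.00195), both subunits of the trifunctional protein, Hadha (log2 fold change -0.29, SE 0.09, adjusted p = 0.0102) and Hadhb (log2 fold change -0.41, SE 0.10, adjusted p = 0.00177), and the dienoyl-CoA reductase Decr1 (log2 fold change -0.39, SE 0.13, adjusted p = 0.0234). Hadhb shares 14.8% of its 100-base words with the pseudogene Gm13910, so its count is uncertain to that extent. These falls were smaller than those of the thioesterases. Without CAST/EiJ CD mice 3, 5, 6 and 7 none of the 4 passed, with log2 fold changes from -0.12 for Hadhb to 0.03 for Decr1. The call of Decr1 was lost without any 1 of these mice, and that of Hadha without CD mouse 5 or 7. In a fit of CAST/EiJ alone the calls of Hadha and Decr1 were lost. The remaining 4 mitochondrial members, Acadvl, Acad11, the thiolase Acaa2 and the isomerase Eci1, passed in no strain; the log2 fold changes of Acaa2 ran from -0.13 to 0.03 and those of Eci1 from -0.35 to 0.32. Acadvl, the very long chain dehydrogenase, shares 42.9% of its exon bases with Dvl2 on the opposite strand, and the strand setting of the counting is not given in the sources used here.

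The 3 genes that pass electrons onward changed little. Etfa was lower on WD in 129S1/SvImJ, with 269 to 307 CPM (median 290.5) in the 7 CD mice and 237 to 268 CPM (median 247) in the 6 WD mice, and all WD mice lay below all CD mice (log2 fold change -0.21, SE 0.06, adjusted p = 0.0057). Etfb was lower in PWK/PhJ (log2 fold change -0.36, SE 0.11, adjusted p = 0.00918), a call that was lost without CD mouse 5 (log2 fold change -0.24, adjusted p = 0.105). For Etfb 53.0% of the exon bases are shared with Gm45233 on the same strand and its mean RPKM on CD, 6.11, was the lowest of the members, so its count is uncertain. Etfdh, which hands the electrons to ubiquinone, passed in no strain, with log2 fold changes of -0.24 to 0.09.

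Peroxisomal beta-oxidation was the role with the most upward calls outside CAST/EiJ, 9 of the 20 made there. Of its 7 members, 3 were higher in C57BL/6J (14.3% of all genes) and 3 in DBA/2J (10.2%). In 129S1/SvImJ 2 were higher (14.5%) and in PWK/PhJ 1 (15.1%). These calls came from Acaa1a in 4 strains, Acaa1b in 3 and Hsd17b4 in 2. Acaa1a and Acaa1b are thiolases of this pathway. Acaa1b (chr9:119148023-119157093) had 261 to 415 CPM (median 339.9) in the 7 CD mice and 660.4 to 984 CPM (median 716) in the 6 WD mice of 129S1/SvImJ, with no overlap (log2 fold change 1.18, SE 0.29, adjusted p = 0.00124). In C57BL/6J it had 187 to 708 CPM (median 544) in the 8 CD mice and 659 to 1257 CPM (median 909) in the 8 WD mice (log2 fold change 0.91, SE 0.27, adjusted p = 0.00737), and in DBA/2J 150.3 to 765 CPM (median 267) in the 6 CD mice and 471 to 779.6 CPM (median 556) in the 7 WD mice (log2 fold change 0.88, SE 0.29, adjusted p = 0.0219). The diets overlapped in both of these strains, and within cohorts the log2 fold change was 1.38 and 0.50 in C57BL/6J and 0.16 and 1.58 in DBA/2J, where CD mice 2 and 3 belong to the first of the 2. The DBA/2J call was lost with edgeR, with DESeq2, when every gene with a count was tested, in a fit of DBA/2J alone and without CD mouse 4, 5 or 6, and over the alternative fits its log2 fold change ran from 0.59 to 1.51. Its log2 fold change was positive but did not pass in A/J (0.87, adjusted p = 0.0735), WSB/EiJ (0.76, adjusted p = 0.108) and PWK/PhJ (0.67, adjusted p = 0.0758), and was -0.18 in CAST/EiJ. Acaa1a (chr9:119339676-119350299) rose by less in 4 strains: C57BL/6J (log2 fold change 0.34, SE 0.13, adjusted p = 0.0469), DBA/2J (log2 fold change 0.39, SE 0.15, adjusted p = 0.0487), 129S1/SvImJ (log2 fold change 0.43, SE 0.15, adjusted p = 0.0202) and PWK/PhJ (log2 fold change 0.37, SE 0.15, adjusted p = 0.049). Its ranges did not overlap in 129S1/SvImJ, with 112 to 147 CPM (median 131) in the 7 CD mice and 163 to 198 CPM (median 172) in the 6 WD mice.

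Between them the thiolases share 7.2% (Acaa1a) and 19.3% (Acaa1b) of their 100-base words, so reads of one could be counted to the other or dropped. The calls of Acaa1a sat close to the threshold: leaving out 1 mouse at a time ended the call for 11 of 16 mice in C57BL/6J, 10 of 13 in DBA/2J and 7 of 13 in PWK/PhJ, and without C57BL/6J CD mouse 2 the log2 fold change there was 0.19 (adjusted p = 0.234). Hsd17b4, the multifunctional enzyme of the branched-chain route, was higher in C57BL/6J (log2 fold change 0.34, SE 0.10, adjusted p = 0.00493) and DBA/2J (log2 fold change 0.33, SE 0.10, adjusted p = 0.0184), where the call was lost without CD mouse 4 or 5. Ehhadh, the other multifunctional enzyme, passed in no strain even though in PWK/PhJ all WD mice were above all CD mice, with 442 to 559 CPM (median 485) in the 6 CD mice and 573 to 851 CPM (median 735) in the 7 WD mice (log2 fold change 0.51, SE 0.32, adjusted p = 0.239). Pex11a (chr7:79735957-79743131), a peroxisome division factor, was the only peroxisomal member called lower, in CAST/EiJ, with 64.6 to 353 CPM (median 255) in the 7 CD mice and 61.9 to 104 CPM (median 81.4) in the 8 WD mice (log2 fold change -1.09, SE 0.25, adjusted p = 0.000702). Without CAST/EiJ CD mice 3, 5, 6 and 7 its value was 0.07 (adjusted p = 0.977), and in a fit of CAST/EiJ alone its call was lost. The peroxisomal reductase Decr2 and isomerase Eci2 passed in no strain with all mice in the fit, with log2 fold changes of -0.28 to 0.26 and of -0.44 to 0.05.

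All 4 thioesterases, neighbors on chromosome 12, were lower on WD in CAST/EiJ (9.73% of all genes). Their medians moved further than those of any other role with more than 2 members. Acot1 (chr12:84009490-84018371), the cytosolic enzyme, read 27.8, 13.7, 226, 10.2, 366, 329.9 and 400.5 CPM in CAST/EiJ CD mice 1 to 7 and 18.8 to 51.4 CPM (median 25.2) in the 8 WD mice (log2 fold change -1.70, SE 0.54, adjusted p = 0.0161). CD mice 3, 5, 6 and 7 were far above the WD mice, while mice 1, 2 and 4 were within or below their range. Acot3 (chr12:84052144-84060402), of peroxisomes, read 6.13, 1.87, 56.4, 6.51, 34.0, 82.3 and 77.5 CPM in the same order and 0.619 to 11.3 CPM (median 1.84) in the 8 WD mice (log2 fold change -3.24, SE 0.89, adjusted p = 0.00517). Acot2 (chr12:83987861-83993873), the mitochondrial enzyme, gave log2 fold change -2.04, SE 0.61, adjusted p = 0.0102, and Acot4 (chr12:84038379-84048601), whose promoter held the DR1 element without its first letter, gave log2 fold change -1.74, SE 0.35, adjusted p = 0.000112. Without those 4 CD mice none of the 4 genes passed, the call of Acot1 was lost without any 1 of them, and Acot1 and Acot2 changed sign, with log2 fold changes of 0.80 and 0.37. In a fit of CAST/EiJ alone the calls of Acot1, Acot2 and Acot3 were lost and that of Acot4 was kept. Acot1 and Acot2 share 9.3% and 17.1% of their 100-base words, so their separate counts are uncertain to that extent.

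In PWK/PhJ, Acot3 was lower on WD with no overlap, at 12.5 to 21.9 CPM (median 13.1) in the 6 CD mice and 1.68 to 7.10 CPM (median 3.31) in the 7 WD mice (log2 fold change -2.10, SE 0.80, adjusted p = 0.0386). PWK/PhJ CD mouse 5 was the highest by a wide gap, and the call was lost when it was left out, as it was for WD mice 1, 3, 4, 5, 6 and 7 left out in turn, with adjusted p up to 0.0737. Acot4 of PWK/PhJ did not overlap either, at 52.9 to 83.2 CPM (median 56.3) in the 6 CD mice and 29.5 to 50.7 CPM (median 38.5) in the 7 WD mice, but did not pass (log2 fold change -0.66, SE 0.37, adjusted p = 0.173). In the 5 remaining strains no thioesterase passed, and their log2 fold changes ran from -1.11 to 0.58. The spread within groups was wide: in DBA/2J on CD, Acot1 read 42.7, 135, 168, 12.8, 3.68 and 9.97 CPM in mice 1 to 6, and the 95% interval of its log2 fold change was -2.10 to 0.35.

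Pdk4 (chr6:5483351-5496309), the kinase that shuts off pyruvate dehydrogenase and so spares glucose, had, in CAST/EiJ, a fall about as large as that of Acot3. In CAST/EiJ CD mice 1 to 7 it read 3.60, 3.87, 357, 8.92, 882, 504 and 534 CPM, against 4.19 to 13.0 CPM (median 8.53) in the 8 WD mice (log2 fold change -3.26, SE 0.73, adjusted p = 0.0005). CD mice 1, 2 and 4 had levels like those of the WD mice, and only mice 3, 5, 6 and 7 were high. Within cohorts 1, 3 and 4 its log2 fold change was 1.07, -2.33 and -4.79; cohort 1 held 1 CD mouse. Without the 4 high mice it was 0.60 (adjusted p = 0.832). The main fit shares its estimate of the spread over all 14 groups, and in a fit of CAST/EiJ alone the call was lost. C57BL/6J had the other call, with 11.7 to 81.6 CPM (median 38.4) in the 8 CD mice and 5.89 to 31.0 CPM (median 8.41) in the 8 WD mice (log2 fold change -1.78, SE 0.64, adjusted p = 0.0295). That call was lost when CD mouse 1, CD mouse 4 or WD mouse 8 was left out, with adjusted p up to 0.0639. In the 5 other strains the log2 fold change of Pdk4 ran from -1.14 in DBA/2J to 0.62 in 129S1/SvImJ, and none passed.

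Vnn1 (chr10:23894688-23905343), the pantetheinase of the cell surface that releases the CoA precursor pantothenate, had the largest rise of any member by log2 fold change. It was higher on WD in 4 strains. C57BL/6J had 10.95 to 85.4 CPM (median 52.6) in the 8 CD mice and 86.8 to 198 CPM (median 161) in the 8 WD mice, and every WD mouse was above every CD mouse (log2 fold change 1.64, SE 0.32, adjusted p = 5.46e-05). 129S1/SvImJ showed the same separation, at 5.32 to 17.3 CPM (median 11.5) in the 7 CD mice and 29.2 to 74.8 CPM (median 40.0) in the 6 WD mice (log2 fold change 1.90, SE 0.40, adjusted p = 0.000151). The ranges overlapped in DBA/2J, at 15.0 to 136 CPM (median 27.6) in the 6 CD mice and 81.5 to 147 CPM (median 121) in the 7 WD mice (log2 fold change 1.52, SE 0.36, adjusted p = 0.0012), where CD mice 2 and 3 had 111 and 136 CPM. PWK/PhJ had 4.89 to 23.2 CPM (median 15.4) in the 6 CD mice and 18.7 to 58.2 CPM (median 39.4) in the 7 WD mice (log2 fold change 1.62, SE 0.40, adjusted p = 0.000869). Vnn1 did not pass in A/J (0.87, adjusted p = 0.171, 95% interval 0.07 to 1.66), WSB/EiJ (-0.68, adjusted p = 0.332, interval -1.47 to 0.12) or CAST/EiJ (-1.11, adjusted p = 0.303, interval -2.54 to 0.32). Within cohorts the log2 fold change was 2.18 and 1.07 in PWK/PhJ, 1.43 and 2.31 in 129S1/SvImJ, 0.68 and 2.31 in DBA/2J, and 2.19 and 1.20 in C57BL/6J. CAST/EiJ mice had little of it on either diet, at 1.69 to 8.71 CPM (median 3.21) in the 7 CD mice and 1.21 to 2.31 CPM (median 1.77) in the 8 WD mice. In C57BL/6J, then, Vnn1 rose while Pdk4 fell.

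**Figure D3:**
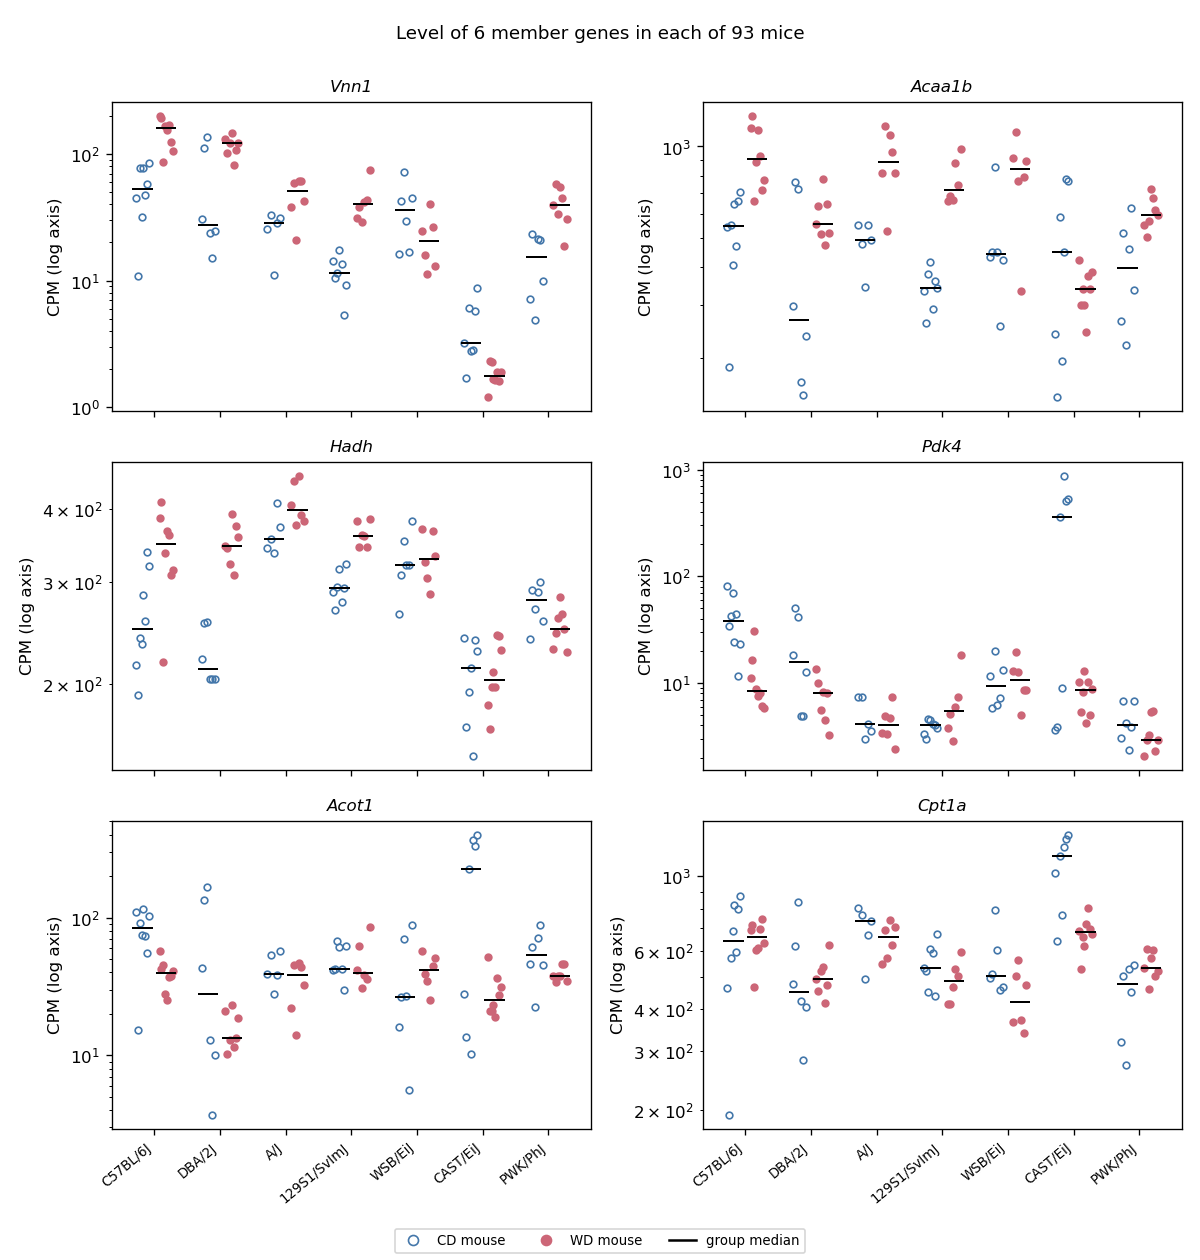
Each point is the CPM of 1 mouse on a log axis, for Vnn1, Acaa1b, Hadh, Pdk4, Acot1 and Cpt1a, by strain and diet, with a bar at the median of each group. The CD mice of CAST/EiJ form a high and a low set for Pdk4 and Acot1, and the WD mice lie above the CD mice for Vnn1 in C57BL/6J and 129S1/SvImJ.

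The ketone body enzyme among the members, Bdh1, which interconverts acetoacetate and beta-hydroxybutyrate, was called in CAST/EiJ alone, with 116 to 332 CPM (median 199) in the 7 CD mice and 221 to 285 CPM (median 264) in the 8 WD mice (log2 fold change 0.30, SE 0.11, adjusted p = 0.0484). It was the single member called higher there. The call was lost for 10 of the 15 mice left out in turn, and without CD mice 3, 5, 6 and 7 the value was -0.13 (adjusted p = 0.794). In the other 6 strains the log2 fold change of Bdh1 ran from -0.29 to 0.23.

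A further comparison asked whether the strains differed in their response to the diet. The F test of equal diet effects over the 7 strains passed for 10 of the 33 members, against 37.5% of all genes. In order of their p they were Vnn1 (adjusted p = 0.000111), Hadh (0.000136), Pex11a (0.00685), Acot3 (0.0116), Hadhb (0.0189), Acot4 (0.0212), Cpt1a (0.027), Acot2 (0.0323), Crat (0.0462) and Pdk4 (0.0482). Without CAST/EiJ CD mice 3, 5, 6 and 7, the number was 4: Hadh (0.000168), Vnn1 (0.00128), Pdk4 (0.0118) and Ehhadh (0.0186). Without DBA/2J CD mice 2 and 3 it was 22, and without C57BL/6J CD mouse 2 it was 12. Leaving out any 1 mouse moved it between 5 (without CAST/EiJ CD mouse 6) and 17 (without CAST/EiJ CD mouse 2).

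Set against the mean of the other 6 strains, CAST/EiJ had 13 members with a different diet effect (14.5% of all genes). Of these, 12 had a lower effect, among them Pdk4 (difference -2.79, SE 0.83, adjusted p = 0.0134), Crat (difference -1.23, SE 0.32, adjusted p = 0.00402), Acot4 (difference -1.50, SE 0.38, adjusted p = 0.0035) and Vnn1 (difference -2.25, SE 0.74, adjusted p = 0.0267), and Etfa had a higher one (difference 0.17, SE 0.06, adjusted p = 0.0435). Left without CD mice 3, 5, 6 and 7, CAST/EiJ had 0. DBA/2J had 2, both higher, Hadh (difference 0.51, SE 0.11, adjusted p = 0.00109) and Acadm (difference 0.35, SE 0.12, adjusted p = 0.0459), against 7.77% of all genes; without CD mice 2 and 3 it had 8. PWK/PhJ had 1, Hadh with a lower effect (difference -0.39, SE 0.11, adjusted p = 0.00767; 16.3% of all genes). WSB/EiJ also had 1, Vnn1 with a lower effect (difference -1.75, SE 0.44, adjusted p = 0.026; 0.947% of all genes). C57BL/6J (with or without CD mouse 2), A/J and 129S1/SvImJ had 0 members, where 4.69%, 0.466% and 6.28% of all genes passed. Since every strain enters the mean that the others are set against, these comparisons share mice.

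In 6 of the 7 strains most members varied more between mice on CD than on WD. The mice left out above were all on CD, but WD mice stood apart too. On WD, WSB/EiJ mouse 4 was the lowest by a wide gap for 12 members, C57BL/6J mouse 3 for 9 and A/J mouse 3 for 5. On CD the median SD of log2 CPM over the 33 members was 0.50 in DBA/2J, 0.45 in C57BL/6J and 0.41 in CAST/EiJ, and on WD it was 0.13, 0.22 and 0.13. The median over all genes fell by less in these strains, from 0.24 to 0.22, from 0.32 to 0.28 and from 0.31 to 0.23. All 33 members had the larger SD on CD in DBA/2J and in CAST/EiJ, where 56.0% and 67.7% of all genes did. The number was 29 in PWK/PhJ (60.7% of all genes), 27 in C57BL/6J (61.9%), 25 in WSB/EiJ (48.8%), 21 in 129S1/SvImJ (50.9%) and 14 in A/J (46.7%). Without CAST/EiJ CD mice 3, 5, 6 and 7 the number in CAST/EiJ was 27 (43.9% of all genes) and the median SD on CD 0.27, over 3 mice. Without DBA/2J CD mice 2 and 3 it was 29 (45.6%) with a median SD of 0.24, over 4 mice. Without CD mouse 2, C57BL/6J had 16 (46.0%), and its median SD on CD, 0.19, was then below that on WD. These numbers are descriptions with no test, and members that share mice are not independent. Over all 14 groups, Acot3 (SD 1.36), Pdk4 (1.24) and Acot1 (1.06) varied more within groups than 99.6%, 99.5% and 99.1% of all genes, while the median over the members, 0.27, was close to that of all genes, 0.29.

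**Figure D4:**
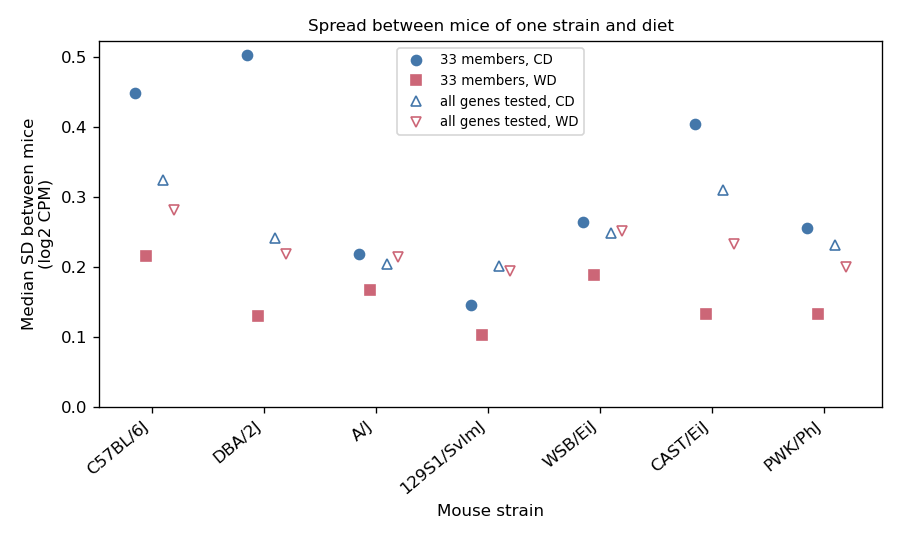
For each strain the vertical axis gives the median, over the 33 members (filled) or over all genes tested (open), of the SD of log2 CPM between mice of one diet. With all mice included, the members' median is higher on CD than on WD in all 7 strains, and the gap is widest in DBA/2J (0.50 against 0.13; 0.24 on CD without mice 2 and 3).

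Levels also differed between strains on CD, and there per-length values (RPKM, counts per kilobase of exon, scaled like CPM) allow genes to be set side by side. Averaged over strains, the highest were Acaa2 (482 RPKM), the mitochondrial thiolase, Acaa1b (223), Ehhadh (213), Acsl1 (185) and Etfa (164). The lowest were Etfb (6.11), Acot2 (6.55) and Acot3 (7.55), but their reads could be dropped or counted to other genes. Etfb and Acot3 share 53.0% and 11.5% of their exon bases with Gm45233 and Gm49366 on the same strand. Acot2 shares 17.1% of its words with Acot1. The low places of Etfb, Acot2 and Acot3 are therefore uncertain as measures of level. The strains' mean CPM (one gene against itself) spanned the widest ranges for Pdk4, Vnn1 and 3 of the thioesterases. Pdk4 ran from 3.90 ± 0.595 CPM (SD, n = 7) in 129S1/SvImJ to 328 ± 339.9 CPM (SD, n = 7) in CAST/EiJ, 84.0-fold. Vnn1 ran from 4.42 ± 2.48 CPM (SD, n = 7) in CAST/EiJ to 56.9 ± 52.6 CPM (SD, n = 6) in DBA/2J, 12.9-fold. Acot3 spanned 5.62-fold from 10.1 ± 13.1 CPM (SD, n = 6) in DBA/2J to 56.6 ± 13.7 CPM (SD, n = 5) in A/J. Acot2 and Acot1 spanned 5.22-fold, from PWK/PhJ to CAST/EiJ, and 5.05-fold, from WSB/EiJ to CAST/EiJ. Hadha, at 1.19-fold, had the narrowest range. Several of these ranges rested on the mice that stood apart. With CAST/EiJ CD mice 3, 5, 6 and 7, DBA/2J CD mice 2 and 3 and C57BL/6J CD mouse 2 all left out, Pdk4 had its highest mean in C57BL/6J, at 42.5 ± 25.6 CPM (SD, n = 7), 10.9-fold above 129S1/SvImJ, and the 3 remaining CAST/EiJ mice averaged 5.46 ± 3.00 CPM (SD, n = 3). Acot1 and Acot2 then had their lowest means in CAST/EiJ and their highest in C57BL/6J, 5.16-fold and 10.0-fold apart. Vnn1 spanned 23.6-fold from CAST/EiJ to C57BL/6J and Acot3 33.6-fold from DBA/2J, at 1.69 ± 1.10 CPM (SD, n = 4), to A/J.

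**Figure D5:**
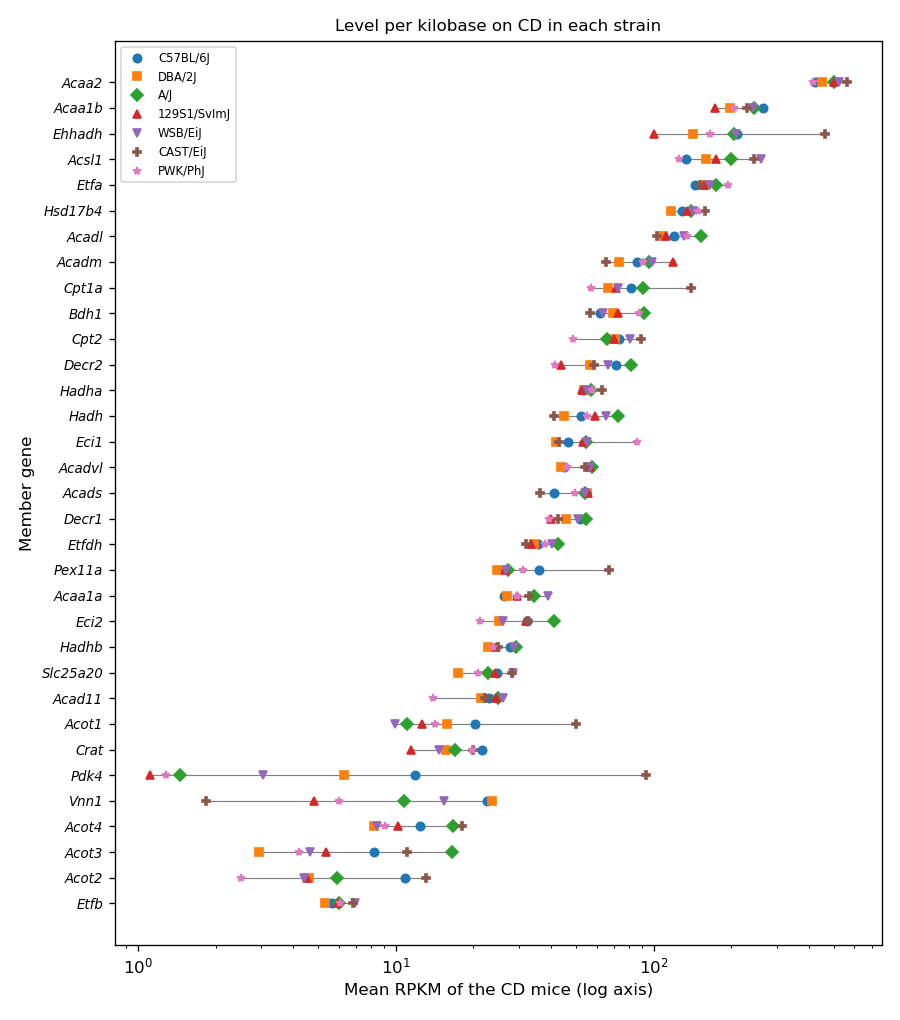
For each member the 7 symbols give the mean RPKM of the CD mice of each strain, on a log axis, ordered by the mean over strains. Hadha spans 1.19-fold, whereas Pdk4 spans 84.0-fold and Vnn1 12.9-fold, with CAST/EiJ at the top of one and at the bottom of the other; the Pdk4 range is 10.9-fold without the CD mice that stood apart.

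The F test of equal CD means passed for 31 of 33 members, all but Acaa1b and Hadha, against 93.7% of all genes. Cohort was not part of these CD comparisons. For WSB/EiJ, alone in its cohorts, strain and cohort cannot be told apart, and for the other strains only in part. Compared with the mean of the other 6 strains, A/J had 11 members higher and 0 lower on CD (20.5% and 16.2% of all genes), and WSB/EiJ likewise 11 and 0 (25.4% and 23.8%). DBA/2J had 2 higher and 13 lower (22.9% and 19.4%), and PWK/PhJ 3 and 9 (30.2% and 28.4%). C57BL/6J had 4 and 7 (29.5% and 28.4%), 129S1/SvImJ 3 and 3 (23.6% and 20.6%), and CAST/EiJ 11 and 9 (32.4% and 31.5%). The numbers in CAST/EiJ, DBA/2J and C57BL/6J depended on the mice that stood apart. Without CD mice 3, 5, 6 and 7, CAST/EiJ had 1 higher and 14 lower, and Pdk4 went from above the other strains (difference 3.08, SE 0.51, adjusted p = 1.6e-07) to a difference of -0.78 (adjusted p = 0.292). Vnn1 was lower in CAST/EiJ with these mice (difference -2.64, SE 0.47, adjusted p = 1.09e-06) and without them (-3.29, adjusted p = 0.000792). In DBA/2J without CD mice 2 and 3 the numbers were 0 higher and 27 lower, and in C57BL/6J without CD mouse 2 they were 12 and 4.

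Other genes of these pathways, listed by their known roles and with earlier results of these data known, were counted in the same fit. Of 40 further genes of fatty acid oxidation and ketogenesis, CAST/EiJ had 11 higher and 14 lower (9.77% and 9.73% of all genes). DBA/2J had 15 and 4 (10.2% and 7.77%), C57BL/6J 13 and 7 (14.3% and 11.9%), and PWK/PhJ 5 and 5 (15.1% and 14.5%). 129S1/SvImJ had 7 and 2 (14.5% and 13.6%), WSB/EiJ 3 and 5 (4.97% and 3.97%), and A/J 5 and 1 (4.39% and 4.64%). In PWK/PhJ both numbers were below the shares of all genes. Without the mice that stood apart the numbers became 3 and 2 in CAST/EiJ (0.904% and 1.62% of all genes). They were then 13 and 1 in DBA/2J (7.69% and 5.90%) and 13 and 12 in C57BL/6J (16.7% and 13.5%). Cd36, a fatty acid transporter, was higher in every strain but CAST/EiJ, with log2 fold changes of 0.73 to 2.81 in those 6 and 0.11 in CAST/EiJ. Abcd2, a peroxisomal transporter, was lower in C57BL/6J, WSB/EiJ and CAST/EiJ, and Acacb, which makes the malonyl-CoA that inhibits Cpt1a, was lower in WSB/EiJ, CAST/EiJ and PWK/PhJ. Among 13 genes for PPARα and its cofactors, CAST/EiJ had 0 higher and 5 lower, 129S1/SvImJ 0 and 4, and PWK/PhJ 1 and 3. C57BL/6J had 2 and 1, DBA/2J 0 and 1, and A/J and WSB/EiJ none. The numbers in C57BL/6J and DBA/2J were near or below the shares of all genes just given. Without the mice that stood apart the numbers were 0 and 0 in CAST/EiJ, 0 and 1 in DBA/2J and 0 and 2 in C57BL/6J. Lpin1, a coactivator and phosphatidate phosphatase, was higher in C57BL/6J (log2 fold change 1.01, SE 0.36, adjusted p = 0.0289) and lower in CAST/EiJ, PWK/PhJ and 129S1/SvImJ. Its C57BL/6J call was lost without CD mouse 2, and its CAST/EiJ call without CD mice 3, 5, 6 and 7. The coactivator Ppargc1a was lower in CAST/EiJ (log2 fold change -1.11, SE 0.22, adjusted p = 9.07e-05), a call also lost without those 4 CAST/EiJ mice. The acetyltransferase Crebbp was lower in 4 strains.

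Of 19 other PPARα targets, 12 were lower and 0 higher in CAST/EiJ (9.73% and 9.77% of all genes), with a median log2 fold change of -1.32. Leaving out CD mice 3, 5, 6 and 7 brought this to 1 lower and 0 higher (1.62% and 0.904% of all genes, median -0.16). C57BL/6J had 3 higher and 5 lower (14.3% and 11.9%), DBA/2J 1 and 2 (10.2% and 7.77%), and A/J 1 and 3 (4.39% and 4.64%). 129S1/SvImJ had 2 and 2 (14.5% and 13.6%), WSB/EiJ 1 and 4 (4.97% and 3.97%), and PWK/PhJ 2 and 2 (15.1% and 14.5%). DBA/2J had 2 and 1 without CD mice 2 and 3 (7.69% and 5.90%), and C57BL/6J 4 and 5 without CD mouse 2 (16.7% and 13.5%). Fgf21, a liver hormone, was lower in C57BL/6J, A/J and CAST/EiJ (log2 fold change -2.17, SE 0.69, adjusted p = 0.0178), Cyp4a31 was lower in C57BL/6J and CAST/EiJ (log2 fold change -3.07, SE 0.86, adjusted p = 0.00595), and the aldehyde dehydrogenase Aldh3a2 was higher in every strain but CAST/EiJ.

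In bulk liver, fewer cells of a type and less RNA per cell cannot be told apart, and markers of other cell types moved with the diet. Hepatocyte markers summed to a lower median on WD in all 7 strains, from 139600 to 92920 CPM in C57BL/6J and from 148000 to 99440 CPM in CAST/EiJ. One by one, 9 of the 15 were lower in 129S1/SvImJ, 7 in PWK/PhJ, 6 in C57BL/6J, 5 each in A/J and WSB/EiJ, 4 in DBA/2J and 3 in CAST/EiJ, and 2 were higher in DBA/2J and 1 each in 129S1/SvImJ and WSB/EiJ. Of 15 leukocyte and macrophage markers, 129S1/SvImJ had 13 higher, C57BL/6J and PWK/PhJ 12 each, WSB/EiJ 6, A/J 2, CAST/EiJ 1 and DBA/2J 0, and their summed ranges in 129S1/SvImJ were 109.6 to 194 CPM on CD and 267 to 392 CPM on WD. Stellate cell and fibroblast markers were higher for 6 of 10 in PWK/PhJ, 5 in C57BL/6J, 4 in 129S1/SvImJ and 2 in A/J. Cholangiocyte markers were higher for 5 of 6 in PWK/PhJ and for 1 each in C57BL/6J, 129S1/SvImJ and CAST/EiJ, and 1 was lower in DBA/2J. Endothelial markers, of which 8 were tested, had 2 higher and 2 lower in C57BL/6J, 2 higher in 129S1/SvImJ, 1 of each in PWK/PhJ, 3 lower in DBA/2J and 1 lower in WSB/EiJ. Without C57BL/6J CD mouse 2, 6 stellate cell and fibroblast and 4 cholangiocyte markers were higher there, and without CAST/EiJ CD mice 3, 5, 6 and 7 no leukocyte or cholangiocyte marker passed there. The shares of all genes called in each strain, given above, apply to these marker counts as well. The part of these markers in the members' results was not tested.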

How the data were processed

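Liver RNA of 93 mice was made into mRNA libraries and sequenced on a BGISEQ-500. The authors deposited whole-number read counts per gene, made with the STAR aligner (2.7.1a, per the submitters' processing notes) on the C57BL/6J reference genome (GRCm38, mm10) without trimming; the strand setting and annotation release are not given in the sources used here. Summary lines of the table (unmapped 1.66% to 14.82% of reads, multimapping 8.03% to 12.18%, no feature 3.82% to 5.54%, ambiguous 3.69% to 5.67%) were left out. No 2 columns were identical.

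Strain and diet came from the labels, and each sample is a separate mouse. Genes were kept by edgeR's filterByExpr (minimum count 10; 19110 genes), scaled by TMM (factors 0.81 to 1.27) and fitted with limma-voom (limma 3.58.1, edgeR 4.0.16, R 4.3.3) on 14 group means, as the study's methods use limma; 79 residual degrees of freedom remained. P-values were Benjamini-Hochberg adjusted over all genes of a comparison, two-sided, with a threshold of 0.05. Intervals are 95% intervals of the fit. CPM and RPKM were computed from the counts with TMM-scaled library sizes, RPKM over all annotated exon bases (GRCm38). On simulated counts with 200 of 18308 genes changed 2-fold between the diets of CAST/EiJ, the test recovered 192 and called 10 unchanged genes. The simulated strains did not differ, and the spread of a gene was equal in all groups. The split among the CAST/EiJ CD mice was not simulated, so these numbers do not carry over to the real comparison in that strain. Promoter sequences are RefSeq's (GRCm38.p6).

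The members, pathway lists and cell type markers were chosen with earlier results of these data known. Values were given in full for up to 3 called members with the largest change in each strain, the 10 members with the smallest p in the F test, the 5 with the widest range of strain means on CD, and members called in opposite directions (0 found); for each other list, up to 3 called genes with the largest mean change were named. Further members were described to account for every role. The alternatives were edgeR's quasi-likelihood test, DESeq2 (1.42.0), upper-quartile scaling, filters on low counts, cohort or RIN as covariates, sample quality weights, separate fits for each strain, within-cohort differences, and each mouse left out; leaving out the CD mice that stood apart was added after seeing the data.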

Additional observations from a re-analysis of the deposited data

Results flagged for a closer look

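Within groups of 5 to 8 mice, a mouse was marked where its gap to the nearest other mouse exceeded Dixon's 95% critical value as a share of the group's range; chance alone marks about 1 in 20. Of 462 pairs of member and group, 71 (15.4%) were marked, and 12 mice lay behind them; members measured in the same mice are not independent. Among the members with values given in full, 21 marks were made.

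C57BL/6J CD mouse 2 was the lowest for 20 members, with ratios of 0.663 for Acaa1a, 0.584 for Acaa1b, 0.637 for Acot1, 0.581 for Cpt1a, 0.704 for Crat, 0.576 for Hadhb and 0.713 for Pex11a. It also had the highest leukocyte, stellate and cholangiocyte marker sums of its group; their part was not tested. A/J CD mouse 3 was the lowest for 13 members, with ratios of 0.892 for Acaa1a, 0.824 for Acot2, 0.815 for Crat, 0.719 for Hadhb and 0.769 for Vnn1. In C57BL/6J on WD, mouse 3 was the lowest for 9 members, among them Acaa1a (0.627), Cpt1a (0.547) and Hadh (0.547), and in WSB/EiJ on WD mouse 4 was the lowest for 12, among them Acaa1b (0.689). Mouse 6 of 129S1/SvImJ on WD was the highest for Acot2 (0.638), Acot3 (0.659) and Acot4 (0.675), and mouse 5 of PWK/PhJ on CD for Acot3 (0.888) and Acot4 (0.724). The split of CAST/EiJ CD mice into 4 high and 3 low mice leaves no single mouse apart and was not marked by this ratio.

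Diet effects that differed between strains by the F test were those of Vnn1 (adjusted p = 0.000111), Hadh (0.000136), Pex11a (0.00685), Acot3 (0.0116), Hadhb (0.0189), Acot4 (0.0212), Cpt1a (0.027), Acot2 (0.0323), Crat (0.0462) and Pdk4 (0.0482). Of these, Hadh, Vnn1 and Pdk4 also passed without CAST/EiJ CD mice 3, 5, 6 and 7, with adjusted p of 0.000168, 0.00128 and 0.0118.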

How the results depend on the processing

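No paired analysis was possible because the labels carry no replicate numbers. Of 370 values of called members under alternatives, 310 kept the call, 53 lost it and 7 reversed; the calls of Vnn1 in 4 strains kept direction and threshold under every alternative fit. Upper-quartile scaling moved the median diet effect over all genes by at most 0.0615 (log2), in 129S1/SvImJ. The counts of members below are those that moved by over 1.5 times. With edgeR they were 2 lower in DBA/2J, 1 lower in WSB/EiJ, 0 higher in CAST/EiJ and 1 higher in PWK/PhJ, diet effects unlike the other strains for 1 member in DBA/2J and 2 in 129S1/SvImJ, and CD levels lower for 1 in A/J and 5 in 129S1/SvImJ. DESeq2 gave 2 lower in DBA/2J, 1 higher in A/J, 1 lower in WSB/EiJ, 0 higher in CAST/EiJ and 1 higher in PWK/PhJ, differing diet effects for 1 in C57BL/6J, 2 in 129S1/SvImJ and 2 in PWK/PhJ, and lower CD levels for 1 in A/J and 6 in 129S1/SvImJ. Upper-quartile scaling gave 0 lower in 129S1/SvImJ, a differing diet effect for 1 in DBA/2J, CD levels higher for 8 in C57BL/6J and lower for 1 in WSB/EiJ. Testing every gene with a count gave 0 lower in C57BL/6J, 3 higher in DBA/2J, 0 higher in CAST/EiJ, 1 higher and 1 lower in PWK/PhJ, and differing effects for 1 in DBA/2J, 0 in WSB/EiJ and 6 in CAST/EiJ; at least 10 counts in every mouse gave 1 lower in WSB/EiJ and 3 differing in PWK/PhJ. A cohort term gave 1 lower in WSB/EiJ, 0 higher in CAST/EiJ and 2 differing in C57BL/6J, and RIN 1 lower in WSB/EiJ, 0 higher in CAST/EiJ, 1 higher in PWK/PhJ and 2 differing there. Quality weights gave 3 lower in C57BL/6J, 3 higher in A/J, 2 lower in 129S1/SvImJ, 2 higher and 1 lower in WSB/EiJ, differing effects for 1, 6, 1, 2, 2, 21 and 4 in C57BL/6J, DBA/2J, A/J, 129S1/SvImJ, WSB/EiJ, CAST/EiJ and PWK/PhJ, and 22 by the F test. Separate fits gave 3 higher in C57BL/6J, 4 in DBA/2J, 2 in A/J, 11 in 129S1/SvImJ (2 lower), and 0 higher and 6 lower in CAST/EiJ. The causes were not tested.

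Chosen after seeing the data, leaving out CAST/EiJ CD mice 3, 5, 6 and 7 gave 0 higher, 0 lower and 0 differing there, 4 by the F test, and CD levels for 1 higher and 14 lower; called members that reversed were Bdh1 (-0.13), Acot1 (0.80), Acot2 (0.37), Pdk4 (0.60), Decr1 (0.0283), Acsl1 (0.18) and Pex11a (0.0704). Leaving out DBA/2J CD mice 2 and 3 gave 11 higher, 8 differing, CD levels for 0 higher and 27 lower, and 22 by the F test. Without C57BL/6J CD mouse 2 there were 2 lower there and CD levels for 12 higher and 4 lower. Within cohort 1 of CAST/EiJ (1 CD mouse), Bdh1 (-0.45), Acot1 (0.0214) and Pdk4 (1.07) reversed. With 1 mouse left out, counts higher and lower ranged 5 to 7 and 0 to 2 in C57BL/6J, 3 to 7 and 0 to 0 in DBA/2J, 0 to 1 and 0 to 0 in A/J, 4 to 5 and 1 to 1 in 129S1/SvImJ, 0 to 1 and 0 to 1 in WSB/EiJ, 0 to 1 and 9 to 18 in CAST/EiJ, and 1 to 3 and 0 to 2 in PWK/PhJ, and 5 to 17 by the F test.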

Other observations

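The CD mice with high member levels in CAST/EiJ and in DBA/2J differed in other genes of energy metabolism; these values are descriptions with no test. Lpin1 read 196 to 1587 CPM in CAST/EiJ CD mice 3, 5, 6 and 7 and 63.5 to 295 CPM in mice 1, 2 and 4, whereas in DBA/2J it read 23.2 and 26.0 CPM in CD mice 2 and 3 and 31.4 to 60.7 CPM in the other 4. Fgf21 read 8.90 to 28.8 CPM in the 4 high CAST/EiJ mice and 0.733 to 2.82 CPM in the low 3, while in DBA/2J it read 27.6 and 26.2 CPM in the high mice and 7.78 to 23.2 CPM in the others.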
